A study of Mus musculus with 6 samples.

Results

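The enzymes described here are 34 genes of sugar breakdown in the mouse lens: 20 of glycolysis, 7 of the pentose phosphate pathway, 2 of the polyol pathway and 5 that govern the entry of pyruvate into mitochondria. They were chosen by gene symbol from the reactions they catalyse, and each was matched to the deposited count table of 55416 genes. The symbol Aldoa stands on 2 rows there; the row with more counts was used, and the other, with 0, 2 and 1 counts in KO and 0 in each WT library, was set aside. All 34 passed the filter on low counts and are among the 11474 genes tested. RNA was sequenced from whole lenses of 3 Cd24a germline knockout (KO) samples and 3 wild-type (WT) samples, each made from 2 lenses. The mice were 8 weeks old by the sample labels, while the series text gives 7 weeks. The labels name the strain of the knockouts as C57BL/6 and that of the wild types as C57BL/har, so strain and genotype cannot be told apart. Cd24a encodes a small surface glycoprotein held in the membrane by a lipid anchor, and a germline knockout removes it from every cell of the mouse, so the lens is not the sole tissue affected. The comparison asks which transcripts differ in a lens that lacks the gene.

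Glycolysis splits glucose to pyruvate, which lactate dehydrogenase turns into lactate. The lens has no blood vessels and its mature fibre cells lose their mitochondria, so most of its energy comes from glycolysis ending in lactate. The pentose phosphate pathway draws on the same glucose to make NADPH, which keeps lens glutathione reduced, and the polyol pathway converts glucose to sorbitol and then to fructose and is known for its part in sugar cataract.

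The libraries held 5384542, 5966090 and 5430686 counts in KO lenses and 7302951, 6818687 and 6262742 in WT lenses. Cd24a itself had 71, 58 and 45 counts in KO lenses, against 20656, 18730 and 17514 in WT lenses. Of 13 lens marker genes, 12 were tested, and Cryaa, which encodes an alpha-crystallin, averaged 76959 CPM (counts relative to library size, scaled by the trimmed mean of M-values, TMM) in KO and 81202 in WT lenses. Of these 12 genes 2 were lower in KO lenses: the crystallin gene Crygs (log2 fold change -0.37, edgeR adjusted p = 2.83e-04) and Bfsp2, a fibre cell filament gene (log2 fold change -0.27, edgeR adjusted p = 0.0028). Among the other 10 the log2 fold changes ran from -0.15 to 0.046. Lim2, a fibre cell membrane gene, was listed at 0 in every library. Xist, which marks female tissue, was high in replicate 3 of each group (2466 counts in the KO and 2191 in the WT library) and had at most 4 counts in the others. Markers of neighbouring tissues also differed. Summed pigment epithelium markers ran from 25.1 to 38.6 CPM in KO and from 49.99 to 72.6 CPM in WT lenses, with 4 of 6 tested genes lower. The cornea list summed to 58.4 to 76.7 CPM in KO and 85.7 to 96.7 CPM in WT lenses, nearly all of it Aldh3a1, the sole gene of the list tested, which averaged 65.4 CPM in KO and 89.5 CPM in WT lenses and was lower. Of the other cornea genes Krt12 was at 0, and Krt15 averaged 1.32 CPM in both groups. Upk1b, too low to be tested, had 1, 1 and 1 counts in KO and 4, 11 and 5 counts in WT lenses. Krt5 and Krt14 had at most 2 counts in any library. Summed photoreceptor markers overlapped, at 181 to 315 CPM in KO and 188 to 490 CPM in WT lenses. All 11 tested photoreceptor genes had log2 fold changes below zero, from -0.84 to -0.46, and 1 of them, Gnat1, was lower (-0.82, edgeR adjusted p = 0.039). The other retina markers summed to 32.4 to 82.7 CPM in KO and 67.4 to 89.6 CPM in WT lenses, and all 6 tested genes lay below zero, from -0.89 to -0.38, with Calb2 and Nefl not overlapping between groups. Markers of vessels, muscle and fibroblasts summed to 72.8 to 87.1 CPM in KO and 68.5 to 77.8 CPM in WT lenses. Most of that sum was Pdgfrb, at 66.7 CPM in KO and 58.1 CPM in WT lenses (log2 fold change 0.20, edgeR adjusted p 0.12). Col1a2, the other gene of that list tested, had a log2 fold change of -0.42 and overlapping groups. Leukocyte markers summed to 2.70 to 6.42 CPM in KO and 4.58 to 7.60 CPM in WT lenses. Red cell markers summed to 1.10 to 6.66 CPM in KO and 0 to 0.28 CPM in WT lenses, with Slc4a1 at 0. The part of these marker differences in the results below was not tested, apart from a fit with a photoreceptor score as covariate.

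Of the 34 enzymes, 3 were lower in KO lenses at an adjusted p of at most 0.05 in edgeR's quasi-likelihood test with Benjamini-Hochberg adjustment over all genes tested: aldolase C (Aldoc), lactate dehydrogenase A (Ldha) and transketolase (Tkt). That is 8.82% of the enzymes, where 4.48% of all genes tested were lower. Counting both directions, 7.5% of all genes passed. The higher direction held 0 enzymes, where 3.02% of all genes were higher, and it also held 0 with an unadjusted p up to 0.05 (9.47% of all genes) and 0 in DESeq2 (1.91% of all genes). In a whole lens, fewer cells of a type and less RNA per cell cannot be told apart. The differences were small: 33 of the 34 enzymes differed by less than 1.5-fold. The log2 fold change of KO over WT lay below zero for 26 enzymes (76.5%) and for 49.3% of all genes, with a median of -0.13 for the enzymes and 0.0043 for all genes. Before adjustment, 13 enzymes lay on the lower side with p up to 0.05, where 10.7% of all genes did. The 3 KO libraries all lay below the 3 WT libraries for 13 enzymes (38.2%), where 12.4% of all genes did so. They all lay above them for Gapdh and Pdk2 (5.88%), where 12.1% of all genes did so. The enzymes were measured more precisely than most genes, with a median of 26.3 CPM, against 12.7 CPM for all genes tested. Their median SE of the log2 fold change was 0.106, against 0.160. Shares of enzymes and of all genes are therefore not like for like.

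These counts depend on the scaling. When CPM were scaled by library size alone, the all-gene median of the log2 fold change moved up by 0.11. The enzymes' median was then -0.019, with 18 of the 34 below zero. Relative to the median of all genes, 26 enzymes lay below it under either scaling. A change of scaling moves all genes by about the same amount, so this count could hardly change and is no separate support. With library size alone, 0 enzymes were lower (2.93% of all genes were) and Gapdh was higher with a log2 fold change of 0.24 and an adjusted p of 0.016 in edgeR (8.79% of all genes were higher). Under that scaling 3 KO libraries lay below 3 WT libraries for Aldoc, Ldha, Akr1b3 and Pdk3, where 6.5% of all genes did so, and above them for Gapdh, Pgk1, Pgd and Pdk2, where 23% of all genes did so. The sum of the 34 enzymes shows the same dependence: it was 2575 ± 47.5 CPM in KO and 2820 ± 55.2 CPM in WT lenses with TMM scaling (SD, n = 3 each), while as a share of all counts it was 0.266% ± 0.0062 in KO and 0.271% ± 0.0085 in WT lenses.

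**Figure D1:**
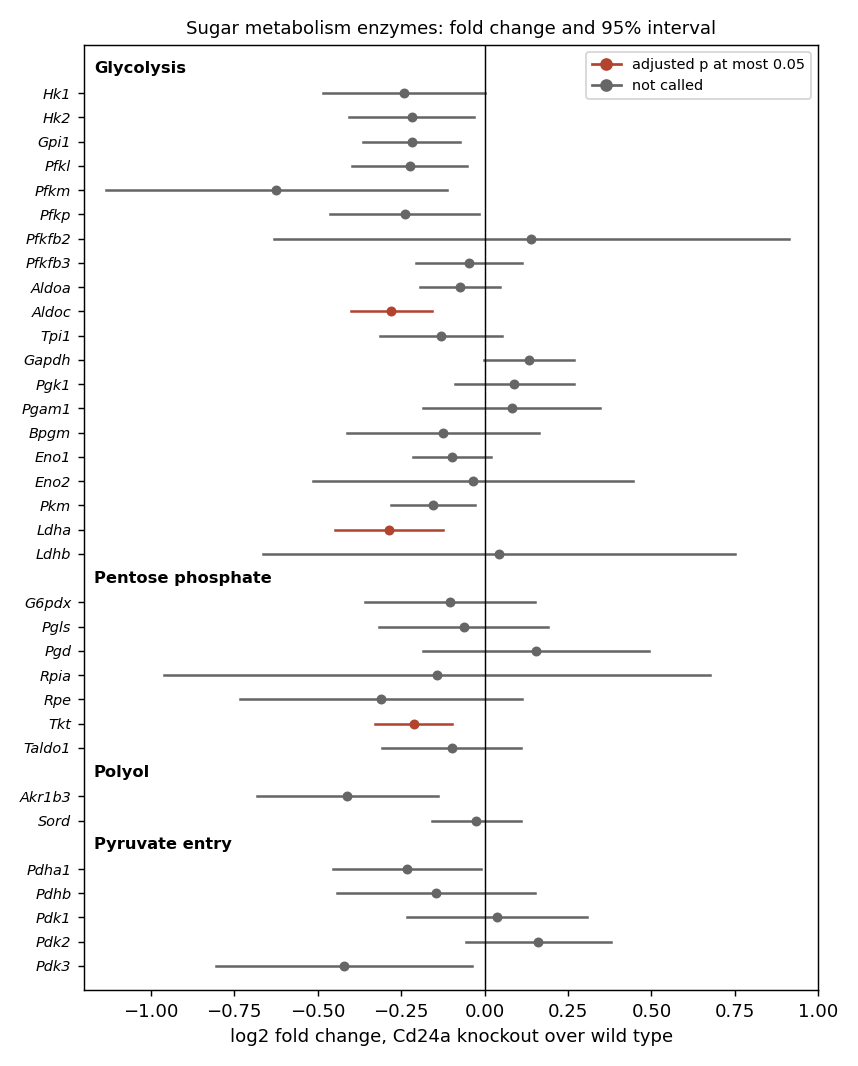
Log2 fold change of KO over WT lenses for the 34 enzymes, by pathway, with the 95% interval from edgeR's quasi-likelihood fit; red points have an adjusted p of at most 0.05. Aldoc, Ldha and Tkt are red, and 26 of the 34 points lie left of zero.

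The promoters of the enzymes that were lower are shown because hypoxia-inducible factor, which binds the core letters ACGTG or GCGTG, is known to drive many glycolytic genes. The windows are RefSeq sequences of 300 bases around the annotated start on the plus strand of build GRCm38.p6, while the counts were made on GRCm39. Capitals mark each match to either core on either strand.
Aldoc, chr11:78322823-78323122: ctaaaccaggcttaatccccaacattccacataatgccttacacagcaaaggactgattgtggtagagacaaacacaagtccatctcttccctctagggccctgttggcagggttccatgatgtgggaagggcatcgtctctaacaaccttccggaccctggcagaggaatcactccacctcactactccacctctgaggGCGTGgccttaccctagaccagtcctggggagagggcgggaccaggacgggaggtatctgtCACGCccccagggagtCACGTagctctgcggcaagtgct
Ldha, chr7:46845554-46845853: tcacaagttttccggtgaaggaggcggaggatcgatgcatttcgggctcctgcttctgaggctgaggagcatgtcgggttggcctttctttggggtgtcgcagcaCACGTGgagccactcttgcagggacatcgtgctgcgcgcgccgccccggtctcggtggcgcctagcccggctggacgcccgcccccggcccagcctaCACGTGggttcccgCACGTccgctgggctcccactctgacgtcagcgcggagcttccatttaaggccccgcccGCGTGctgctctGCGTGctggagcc
Tkt, chr14:30548881-30549180: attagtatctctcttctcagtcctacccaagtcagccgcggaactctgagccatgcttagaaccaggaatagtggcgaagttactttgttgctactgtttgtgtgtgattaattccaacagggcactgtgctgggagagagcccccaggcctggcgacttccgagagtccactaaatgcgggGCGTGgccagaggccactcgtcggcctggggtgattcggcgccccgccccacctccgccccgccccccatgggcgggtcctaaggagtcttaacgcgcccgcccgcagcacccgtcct
The Aldoc window holds 3 matches, the Ldha window 7 and the Tkt window 1. In Ldha the CACGTG palindrome, an E-box that reads as ACGTG on both strands, occurs at 2 places and accounts for 4 of the 7. Aldoc and Ldha each have a further start in the table. The windows there are not shown and hold fewer matches, 1 in Aldoc and 2 in Ldha.

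Of the 34 enzymes, 33 matched the RefSeq promoter table, with 50 windows between them, and Akr1b3 did not. A hypoxia core stood in 37 of the 50 windows (74.0%), against 43.8% of all 32851 windows. By gene, at least 1 window held a core in 27 of the 33 genes (81.8%), against 46.7% of all 27025 genes in the table. The share by gene rises with the number of windows per gene, which was larger for the enzymes. The enzyme windows were also richer in G and C, with a median of 60.7% against 52.7% over all windows, and in CpG, with a median of 20 against 7, and these cores contain CpG. The antioxidant response core, TGACNNNGC on either strand, stood in 5 of the 50 enzyme windows and in 12.4% of all windows. The E-box CACGTG also stood in 5 of the 50, and in 7.2% of all windows. A match describes the letters of the window and not a bound site.

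Levels between genes were compared per length, as RPKM (CPM divided by the deposited exon length in kilobases). By this measure Aldoc was the most abundant of the 34, at 107 ± 6.21 RPKM in KO and 130 ± 5.06 RPKM in WT lenses (SD, n = 3 each). The order rests on the deposited length. In CPM, Tkt averaged 382 in KO and 443 in WT lenses, above Aldoc with 350 in KO and 425 in WT lenses. Aldolase A (Aldoa) averaged 78.3 RPKM in KO and 82.4 in WT lenses, and Gapdh 69.4 in KO and 63.3 in WT lenses. Pkm, the pyruvate kinase gene, stood at 57.8 RPKM in KO and 64.3 in WT lenses. In KO lenses the values of Gapdh all lay above those of Pkm. In WT lenses these 2 genes are not separated in order beyond their spread: Gapdh lay above Pkm in replicate 3 and below it in the other WT libraries. Tkt led the pentose phosphate pathway with 52.0 ± 2.74 RPKM in KO and 60.2 ± 1.05 RPKM in WT lenses. Its partner transaldolase (Taldo1) was next, at 13.8 RPKM in KO and 14.8 in WT lenses. The weakest of the 34 were Pfkfb2, at 0.42 RPKM in KO and 0.38 in WT lenses, and Rpia, at 0.40 in KO and 0.43 in WT lenses. For 6 enzymes the mean was under 10 CPM in both groups.

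**Figure D2:**
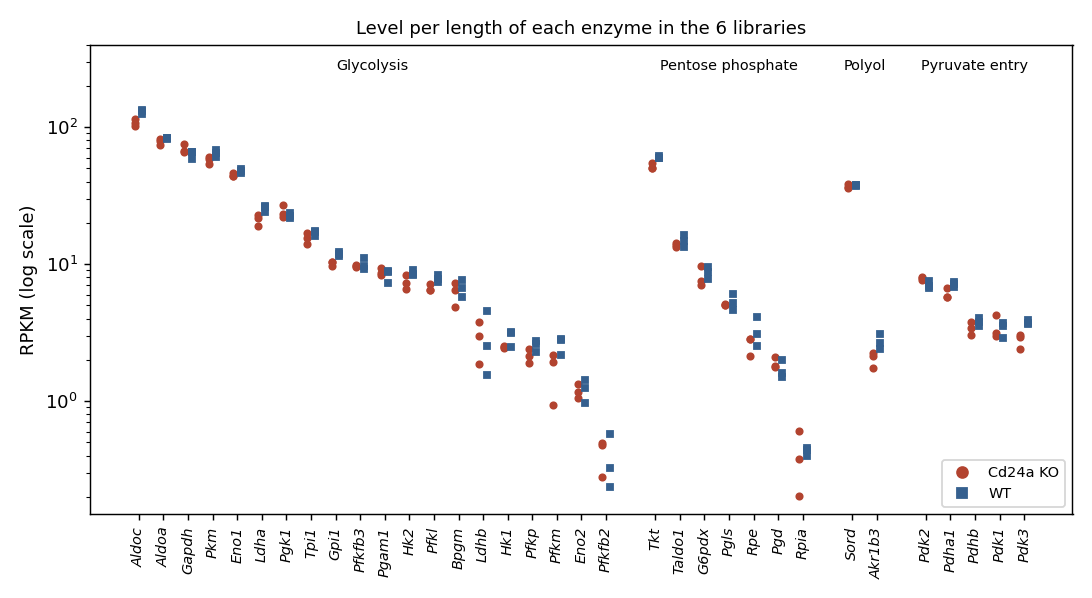
RPKM on a log axis of each enzyme, by pathway, with 1 point per library (3 KO and 3 WT). Aldoc is at the top of glycolysis, Tkt of the pentose phosphate pathway and Sord of the polyol pathway.

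The first steps of glycolysis trap glucose in the cell and commit it to breakdown. Hexokinases phosphorylate glucose, and Hk2 had 49.8, 43.2 and 39.2 CPM in KO lenses, against 50.3, 53.7 and 49.97 CPM in WT lenses. Hk1 had 20.9, 21.5 and 21.3 CPM in KO lenses, against 27.1, 21.2 and 27.0 CPM in WT lenses. The Hk2 groups do not overlap, while one WT library of Hk1 lies within the KO range; neither hexokinase passed the test (log2 fold change -0.22 for Hk2 and -0.24 for Hk1, edgeR adjusted p 0.16 for Hk2 and 0.25 for Hk1). Glucose phosphate isomerase (Gpi1), which makes fructose 6-phosphate, had 62.4, 66.9 and 67.3 CPM in KO lenses, against 74.1, 76.2 and 78.6 CPM in WT lenses. Its groups do not overlap, and its log2 fold change was -0.22 (SE 0.070) with an edgeR adjusted p of 0.063.

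Phosphofructokinase, the committing step, is built from liver (Pfkl), muscle (Pfkm) and platelet (Pfkp) subunits. Pfkl had 47.7, 43.2 and 43.4 CPM in KO lenses, against 52.4, 49.1 and 55.3 CPM in WT lenses. Pfkm had 6.48, 7.21 and 3.13 CPM in KO lenses, against 9.54, 7.26 and 9.38 CPM in WT lenses. Pfkp had 32.2, 28.8 and 25.4 CPM in KO lenses, against 34.9, 30.5 and 36.7 CPM in WT lenses. The groups do not overlap for Pfkl and Pfkm, and they do for Pfkp. Pfkm had the most negative log2 fold change of the 34 enzymes, -0.62 with an SE of 0.24, and KO replicate 3 was its lowest library. Without that library its log2 fold change was -0.35, less negative than the -0.48 of Akr1b3 in the same fit, and with 1 library left out it ran from -0.85 to -0.35. The edgeR adjusted p was 0.11 for Pfkl, 0.14 for Pfkm and 0.21 for Pfkp. Pfkfb2 and Pfkfb3 make and remove fructose 2,6-bisphosphate, an activator of phosphofructokinase. Pfkfb3 averaged 9.70 RPKM in KO and 10.02 RPKM in WT lenses, with a log2 fold change of -0.048 and overlapping groups. Pfkfb2, much lower in level, had a log2 fold change of 0.14 with an SE of 0.37, too wide an error to give a direction.

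Aldolase splits fructose 1,6-bisphosphate. Aldoc (ENSMUSG00000017390, chromosome 11) had 371, 348 and 331 CPM in KO lenses, against 406, 438 and 431 CPM in WT lenses, from 1800 to 2223 counts in KO and 2663 to 2854 counts in WT libraries. Every KO library lay below every WT library. The log2 fold change was -0.28 (SE 0.058, 95% interval -0.40 to -0.16, edgeR adjusted p = 0.0034), a level 17.6% lower in KO lenses. Aldoa had 231, 237 and 215 CPM in KO lenses, against 237, 241 and 241 CPM in WT lenses. The Aldoa groups do not overlap but lie within a narrow range, and its log2 fold change was -0.073 (adjusted p 0.55 in edgeR). Aldoc was no longer past the threshold when scaled by library size alone (log2 fold change -0.17, edgeR adjusted p 0.077), and its adjusted p stayed at or below 0.035 in the other 13 alternatives.

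The later steps recover ATP. Triose phosphate isomerase (Tpi1), phosphoglycerate kinase (Pgk1), phosphoglycerate mutase (Pgam1), bisphosphoglycerate mutase (Bpgm) and the enolase Eno2 overlapped between groups, with log2 fold changes from -0.13 for Tpi1 to 0.089 for Pgk1. Enolase Eno1 had 236, 248 and 237 CPM in KO lenses, against 249, 257 and 266 CPM in WT lenses, which do not overlap (log2 fold change -0.098, edgeR adjusted p 0.35). Gapdh, the glyceraldehyde phosphate dehydrogenase often used as a reference gene, had 273, 275 and 312 CPM in KO lenses, against 242, 273 and 270.2 CPM in WT lenses. Its KO libraries all lay above its WT libraries by a narrow margin, with a log2 fold change of 0.13 (SE 0.065, edgeR adjusted p 0.26). Pkm had 292, 271 and 304 CPM in KO lenses, against 322, 338 and 304 CPM in WT lenses. Its groups do not overlap by a narrow margin, and its log2 fold change was -0.15 (SE 0.060, edgeR adjusted p 0.14). Among 20 named copies or pseudogenes of the enzymes, 2 had at least 10 counts over the libraries, Eno1b and Gapdh-ps14, and the rule by which shared reads were assigned was not stated. Eno1b had 37, 37 and 33 counts in KO and 47, 47 and 50 in WT lenses.

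Lactate dehydrogenase ends glycolysis in the lens, and the A subunit favours lactate while the B subunit favours pyruvate. Ldha (ENSMUSG00000063229, chromosome 7) had 71.8, 62.3 and 75.6 CPM in KO lenses, against 87.2, 88.2 and 79.9 CPM in WT lenses. Every KO library lay below every WT library. The log2 fold change was -0.29 (SE 0.077, 95% interval -0.45 to -0.13, edgeR adjusted p = 0.025). The call was lost in 7 of 14 alternatives: with library size alone (adjusted p 0.13), DESeq2 (0.070), a photoreceptor score as covariate (0.068), and without KO replicate 1 (0.082), KO replicate 2 (0.15), WT replicate 1 (0.11) or WT replicate 2 (0.10). Its log2 fold change was -0.18 with library size alone, -0.29 with DESeq2 and -0.30 with the photoreceptor score, and it ran from -0.35 to -0.21 with 1 library left out. Ldhb had 4.68, 5.95 and 2.94 CPM in KO lenses, against 2.42, 3.95 and 7.11 CPM in WT lenses, which overlap throughout.

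**Figure D3:**
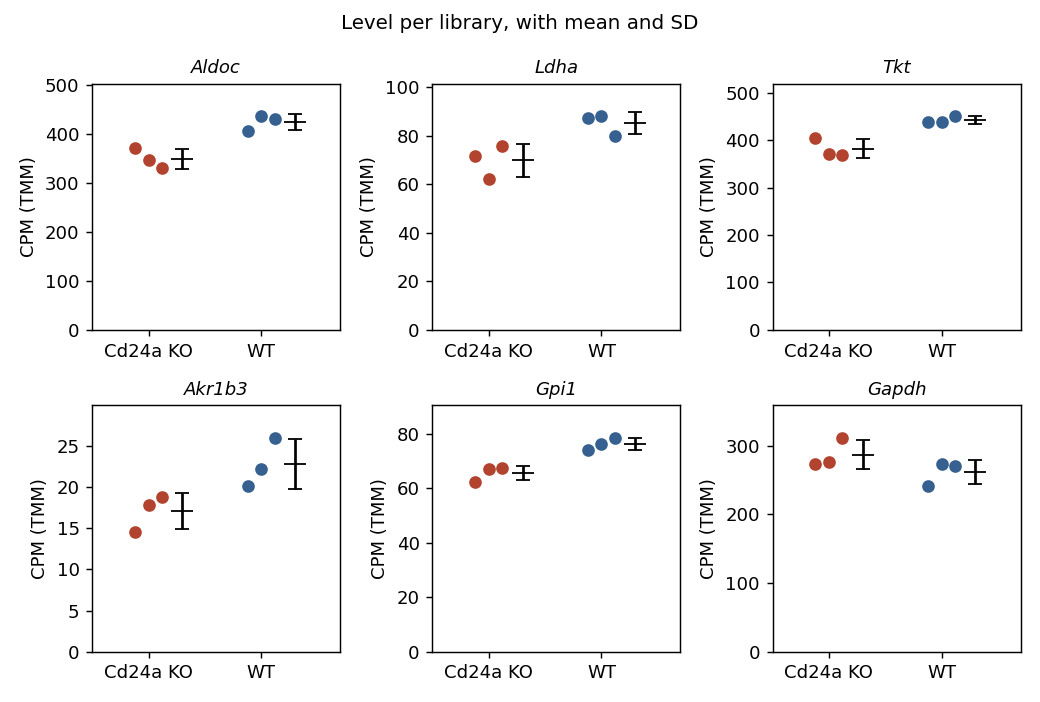
CPM in each library (TMM-scaled; KO left, WT right; bar and whisker, mean ± SD, n = 3 each) for Aldoc, Ldha, Tkt, Akr1b3, Gpi1 and Gapdh. KO points of the first 5 genes all lie below the WT points, and those of Gapdh all above.

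In the pentose phosphate pathway, glucose 6-phosphate dehydrogenase (G6pdx) and Pgd produce the NADPH, Pgls acts between them, Rpia and Rpe interconvert pentoses, and Tkt and Taldo1 return carbon to glycolysis. Tkt (ENSMUSG00000021957, chromosome 14) had 405, 372 and 369.7 CPM in KO lenses, against 439, 437 and 451 CPM in WT lenses. Every KO library lay below every WT library. The log2 fold change was -0.21 (SE 0.055, 95% interval -0.33 to -0.096, edgeR adjusted p = 0.020). The call was lost in 7 of 14 alternatives: with library size alone (adjusted p 0.27), the photoreceptor score (0.13), and without KO replicate 2 (0.10), KO replicate 3 (0.062), WT replicate 1 (0.092), WT replicate 2 (0.064) or WT replicate 3 (0.082). Its log2 fold change was -0.10 with library size alone and -0.18 with the photoreceptor score, and it ran from -0.26 to -0.19 with 1 library left out. The other 6 genes did not pass, and their groups overlap. G6pdx averaged 8.10 ± 1.36 RPKM in KO and 8.69 ± 0.88 RPKM in WT lenses, and Pgd had a log2 fold change of 0.15 (SE 0.16), on the other side of zero from the rest. The log2 fold change was -0.063 for Pgls, -0.098 for Taldo1, -0.14 for Rpia (SE 0.39) and -0.31 for Rpe (SE 0.20). DESeq2 placed Aldoc and Tkt, but not Ldha, among the lower genes, where 3.09% of all genes were lower.

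The polyol pathway has aldose reductase (Akr1b3), which makes sorbitol, and sorbitol dehydrogenase (Sord), which removes it. Akr1b3 had 14.6, 17.9 and 18.8 CPM in KO lenses, against 20.1, 22.3 and 26.0 CPM in WT lenses. The groups do not overlap, and its log2 fold change was -0.41 (SE 0.13, 95% interval -0.68 to -0.14), but its edgeR adjusted p was 0.0596. Akr1b3 passed the threshold in 5 of 14 alternatives: with no filter on low counts (adjusted p 0.038), a replicate block (0.038), a term for sex (0.043), without KO replicate 3 (0.049) and without WT replicate 1 (0.043). Over all 14 its adjusted p ran from 0.038 to 0.25 and its log2 fold change from -0.50 to -0.30. Sord, the more abundant of the pair per length, had 89.8, 84.9 and 86.6 CPM in KO lenses, against 87.6, 88.9 and 89.3 CPM in WT lenses. The Sord groups overlap, with a log2 fold change of -0.025 and a 95% interval from -0.16 to 0.11.

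Pyruvate enters mitochondria through pyruvate dehydrogenase, whose E1 subunits are encoded by Pdha1 and Pdhb, and the kinases Pdk1, Pdk2 and Pdk3 switch it off. Pdha1 had 21.4, 21.6 and 25.2 CPM in KO lenses, against 25.6, 26.7 and 27.8 CPM in WT lenses. Pdk3 had 6.12, 7.83 and 7.54 CPM in KO lenses, against 9.54, 9.31 and 10.03 CPM in WT lenses. Neither overlaps between groups, and neither passed the test, with log2 fold changes of -0.23 for Pdha1 (SE 0.11, edgeR adjusted p 0.22) and -0.42 for Pdk3 (SE 0.18, adjusted p 0.19). Pdk2, the most abundant of the 5 per length in KO lenses (7.89 RPKM), had 25.5, 25.1 and 24.3 CPM in KO lenses, against 23.8, 21.8 and 21.3 CPM in WT lenses. Its KO libraries all lay above its WT libraries, with a log2 fold change of 0.16 (edgeR adjusted p 0.43). Pdhb (log2 fold change -0.15, SE 0.14) and Pdk1 (0.038, SE 0.13) overlapped between groups. Of the 5 genes, 0 passed in either direction in edgeR and 0 in DESeq2, and Pdha1 and Pdk3 had an unadjusted p up to 0.05.

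By pathway, summed TMM-scaled CPM were 1897 ± 27.4 in KO and 2065 ± 43.5 in WT lenses for glycolysis, and 479 ± 23.7 in KO and 545 ± 14.2 in WT lenses for the pentose phosphate pathway (SD, n = 3 each). Most of the pentose phosphate sum was Tkt, at 382 CPM in KO and 443 CPM in WT lenses, and the other 6 genes each overlapped between groups. The polyol genes summed to 104.2 ± 1.32 CPM in KO and 111 ± 3.82 in WT lenses, and the pyruvate entry genes to 95.1 ± 8.59 in KO and 99.5 ± 3.56 in WT lenses. Of the polyol genes, Sord overlapped, at 87.1 CPM in KO and 88.6 CPM in WT lenses. Akr1b3 did not, at 17.1 CPM in KO and 22.8 CPM in WT lenses. As shares of all counts glycolysis took 0.196% in KO and 0.198% in WT lenses, and the pentose phosphate genes 0.0495% in KO and 0.0523% in WT lenses. KO and WT libraries did not overlap in the scaled sums of glycolysis, the pentose phosphate pathway and the polyol genes, and they overlapped in the unscaled shares of all of these. The polyol share was 0.0108% in KO and 0.0107% in WT lenses and the pyruvate entry share 0.0098% in KO and 0.0095% in WT lenses, so both were on the other side from their scaled sums.

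Where several genes encode one step, the share of each was taken per length, with 7 shares compared by a two-sided exact permutation test, whose smallest possible p with 3 against 3 is 0.10. Aldoc made up 58.9%, 56.7% and 57.8% of aldolase transcripts in KO lenses, against 60.5%, 61.9% and 61.4% in WT lenses. The groups do not overlap, and the exact p was 0.10 (0.35 after Benjamini-Hochberg adjustment over the 7). Pfkp made up 20.4% ± 0.50 of phosphofructokinase transcripts in KO and 19.5% ± 0.27 in WT lenses, also with an exact p of 0.10. Pfkl held 64.0% ± 5.05 in KO and 60.4% ± 1.72 in WT lenses, and Pfkm 15.6% ± 5.10 in KO and 20.1% ± 1.53 in WT lenses. Ldha held 87.9% ± 4.59 of lactate dehydrogenase transcripts in KO and 90.01% ± 5.27 in WT lenses, and Hk2 held 74.7% ± 2.49 of Hk1 plus Hk2 in KO and 74.5% ± 3.34 in WT lenses.

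Related genes outside the 34 carry some of the same steps. The muscle-type phosphoglycerate mutase Pgam2 averaged 308 ± 25.2 RPKM in KO and 306 ± 17.5 RPKM in WT lenses, with a log2 fold change of 0.01, while Pgam1 averaged 8.77 RPKM in KO and 8.33 in WT lenses. Muscle enolase (Eno3) had 38.4, 39.4 and 41.7 RPKM in KO lenses, against 29.6, 29.9 and 30.1 RPKM in WT lenses. Its KO libraries all lay above its WT libraries (log2 fold change 0.41, SE 0.073, edgeR adjusted p = 7.72e-04), while Eno1 had 44.7 RPKM in KO and 47.9 in WT lenses with a log2 fold change of -0.098.

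**Figure D4:**
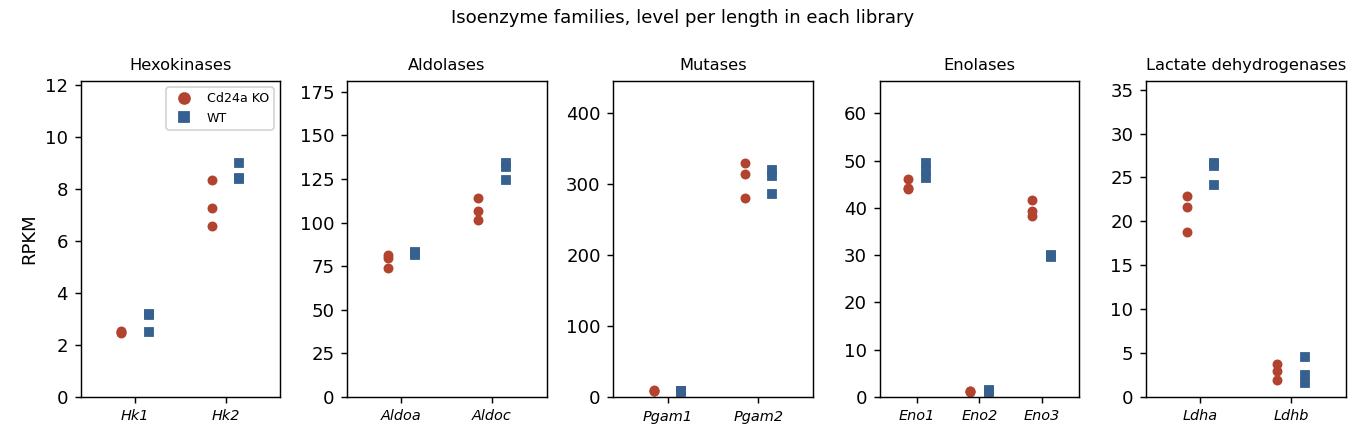
RPKM per library for the hexokinases, aldolases, phosphoglycerate mutases, enolases and lactate dehydrogenases (KO left of WT). Pgam2 is far above Pgam1, and Eno3 is the enolase whose KO points all lie above its WT points.

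Of 100 related genes of sugar transport, storage, the same pathways and hypoxia regulation, 73 were tested, and 1 was lower (1.37%, where 4.48% of all genes were) and 3 higher (4.11%, where 3.02% were). Glo1, which detoxifies methylglyoxal, a by-product of glycolysis, averaged 181 ± 7.46 CPM in KO and 98.8 ± 8.35 CPM in WT lenses (log2 fold change 0.87, SE 0.067, edgeR adjusted p = 2.47e-08). Me2, a mitochondrial malic enzyme, averaged 49.4 CPM in KO and 34.7 CPM in WT lenses (log2 fold change 0.51, edgeR adjusted p = 0.0013). Glo1, Me2 and Eno3 passed the test in all 14 alternatives. Epas1, which encodes HIF-2 alpha, had 2.70, 4.07 and 6.25 CPM in KO lenses, against 9.26, 8.37 and 8.73 CPM in WT lenses (log2 fold change -1.02, SE 0.24, edgeR adjusted p = 0.011). Its call was lost without KO replicate 1 (adjusted p 0.084) or WT replicate 1 (0.057). Hif1a, the other hypoxia factor, averaged 396 CPM in KO and 440.5 CPM in WT lenses, with a log2 fold change of -0.15 (edgeR adjusted p 0.094). The glucose transporter Slc2a1 averaged 169.5 CPM in KO and 181 CPM in WT lenses, with a log2 fold change of -0.091 (edgeR adjusted p 0.49).

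**Figure D5:**
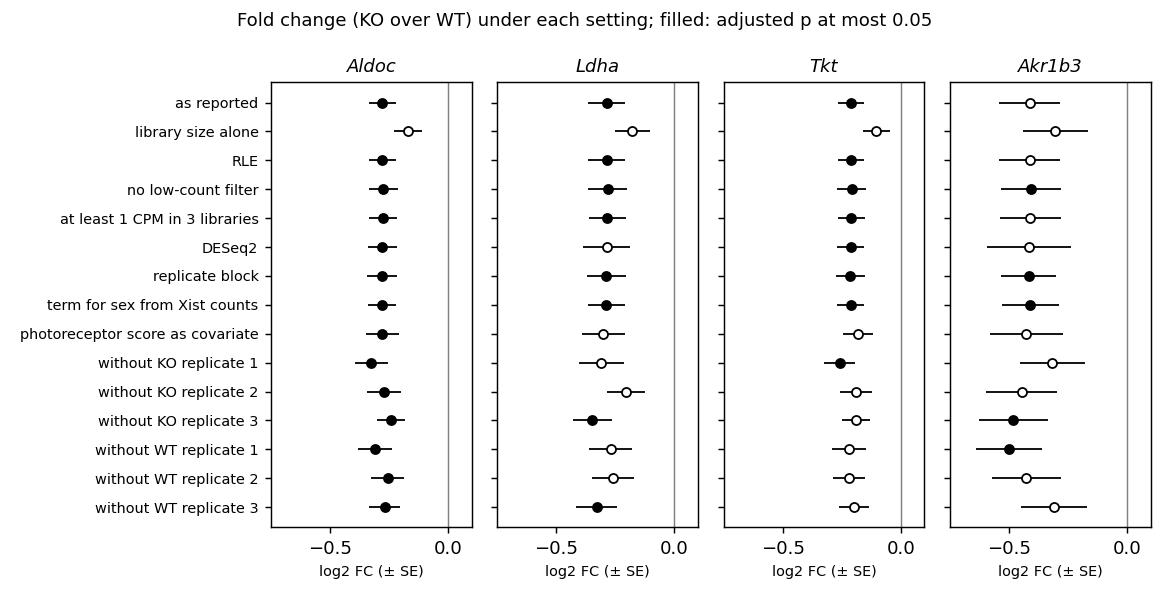
Log2 fold change ± SE of Aldoc, Ldha, Tkt and Akr1b3 under each processing alternative; filled points have an adjusted p of at most 0.05. All points lie below zero, and the points for library size alone lie nearest to zero in all 4 genes.

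In the authors' deposited table, 3 of the 34 enzymes had a q-value of at most 0.05 on the lower side, where 4.36% of all genes did (7.02% in both directions), and 0 were past a 2-fold change: Aldoc (q 0.0037), Ldha (0.027) and Tkt (0.048). The authors' deposited table gives Akr1b3 a q-value of 0.053.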

How the data were processed

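Total RNA from whole lenses was depleted of ribosomal RNA and sequenced from a stranded single-end kit on 4 lanes per library, per the labels' protocols. The authors deposited whole-number counts per gene for Ensembl 104 features, with exon length and GC fraction per gene, and tables of fold change, p-value, q-value and group mean FPKM. HISAT2, HTSeq, edgeR and GRCm39 are named in the submitters' processing notes; versions and the strand setting are not given in the sources used here, so a gene and its antisense partner may share reads. Counts were tested with edgeR 4.0.16 (R 4.3.3, limma 3.58.1; filterByExpr, TMM scaling, quasi-likelihood test, Benjamini-Hochberg adjustment over 11474 genes); DESeq2 1.42.0 was an alternative. The procedure was tested on simulated data. It recovered 10 of 50 genes changed 1.25-fold, 20 of 50 at 1.5-fold, 40 of 50 at 2-fold and 49 of 50 at 4-fold. Among the unchanged genes of the 11285 tested it made 7 calls. The changed genes were drawn at random from all genes that passed the filter. Their recovery does not describe the enzymes, whose median level was higher. Replicates were labelled biological; p-values measure the spread between these samples. The common biological coefficient of variation was 7.19%. The enzymes and all lists were chosen with earlier results of these data known. Values in every library are given for enzymes called, for those with an unadjusted p of at most 0.05, and for the most abundant of each pathway; related genes are named where called, and the others named (Pgam2, Hif1a, Slc2a1, Eno1, Ldhb, Aldoa, Gapdh) were chosen after their values were seen. The deposited signed fold score of the authors' table and its q-value were used only as the authors' values. No rows lacked a gene ID.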

Additional observations from a re-analysis of the deposited data

How the results depend on the processing

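Over 14 alternatives, 20 of the 34 enzymes never changed sign and 14 did so at least once. All genes called numbered 861, against 1344 with library size alone, 574 with DESeq2, and 562 to 782 with 1 library left out. Enzymes called lower numbered 3, against 0 with library size alone, 1 with the photoreceptor score (where the lower calls of all genes were 395, against 514), and 1 to 3 with 1 library left out; with library size alone 1 was called higher. Related genes called lower numbered 0 to 2 with 1 library left out, and 6 were called higher with library size alone. In a comparison chosen after seeing the data, 4 enzymes did not overlap on the lower side and 4 on the higher side with library size alone. Log2 fold changes that changed sign with library size alone were 0.064 for Pfkfb3, 0.038 for Aldoa, 0.011 for Eno1, 0.075 for Eno2, 0.0069 for G6pdx, 0.046 for Pgls, 0.012 for Taldo1 and 0.085 for Sord; the all-gene median moved by 0.11 under that scaling. With the photoreceptor score they were 0.16 for Eno2, 0.032 for Rpia and -0.053 for Pdk1; the cause was not tested. With 1 library left out, log2 fold changes ranged from -0.12 to 0.57 for Pfkfb2, -0.10 to 0.034 for Pfkfb3, -0.0075 to 0.13 for Pgam1, -0.25 to 0.036 for Bpgm, -0.17 to 0.10 for Eno2, -0.27 to 0.53 for Ldhb, -0.15 to 0.039 for Pgls, -0.58 to 0.19 for Rpia and -0.13 to 0.14 for Pdk1. Deviations from the group means were close to uncorrelated between same-numbered samples (correlations 0.052, -0.048 and 0.013), and not every sample correlated best with its own number. With 3 samples per group these values cannot settle whether the numbers pair the samples, and Xist was high in replicate 3 of both groups. With a replicate block 781 genes and 4 enzymes were called, Akr1b3 in addition to the 3. Depth limits the enzymes under 10 CPM, whose intervals are wide.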
